A study of Mus musculus with 24 samples.

Results

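C2C12 myotubes, fused muscle cells of a mouse myoblast line, were profiled by bulk mRNA sequencing to ask how a short fall in oxygen alters the transcriptional response of muscle cells to contraction. All cells were wild type, were grown and differentiated in 5 % O2, and carried the label day 5. They were then kept for 2 h at 5 % or 1 % O2, and were either left unstimulated (5 % CTRL, 1 % CTRL) or electrically stimulated (5 % STIM, 1 % STIM). The study's methods place the 2 h before the stimulation, which came in bouts, with new medium before and after. Stimulated cells were harvested at once. Whether unstimulated cultures were kept as long or received new medium is not stated. Stimulation cannot be told apart from such differences. Each of the 4 groups held 6 libraries, which the study's methods call biological replicates, all from the same cell line. Described here are 7 genes of the respiratory chain and its surroundings, taken by symbol through the GRCm38 annotation from the 55487 genes listed: *Cox4i1*, *Cox4i2*, *Ndufa4l2*, *Higd1a*, *Higd2a*, *Lonp1* and *Iscu*. They were grouped by their known place downstream of the hypoxia-inducible factors (HIF) or as the partner isoform of such a gene, and the rule itself uses no measured value.

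Cytochrome c oxidase, or complex IV, is the enzyme of the respiratory chain that consumes oxygen. In several cell types HIF-1 is known to exchange its subunit COX4I1 for COX4I2 while raising LONP1, the matrix protease that degrades COX4I1. NDUFA4L2, a paralog of the complex IV subunit NDUFA4, is known as a HIF-1 target that lowers respiration, and the small inner membrane proteins HIGD1A and HIGD2A bind or help to assemble complex IV. ISCU is the scaffold on which iron-sulfur clusters are built, and its mRNA is a known target of the hypoxic microRNA miR-210.

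Of the 7 genes, *Higd1a* and *Lonp1* changed with oxygen, and the other 5 did not pass the test in any comparison (1 of these 5, *Cox4i2*, was too low to be tested). Of all genes tested, 29.4 % rose and 30.5 % fell between the same unstimulated groups, so that 2 risen genes of 6 tested is near the general share. *Higd1a* rose 2.37-fold in 1 % CTRL over 5 % CTRL, and *Lonp1* rose 1.23-fold. In stimulated myotubes the rise was smaller for both, at 1.52-fold and 1.08-fold. *Cox4i1*, *Higd2a* and *Iscu* were well expressed, with group means of 3522 to 3704, 480.1 to 581 and 549 to 588 normalized counts. *Ndufa4l2* was counted about 10 times per library and *Cox4i2* almost not at all.

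The sequences in which the hypoxic response of these genes is usually sought are shown first. HIF binds DNA at a short core, written ACGTG or GCGTG. The 250 bases before the RefSeq start (GRCm38.p6) were available for 3 of the 7 genes, the 2 that changed and *Higd2a*, and are printed 5′ to 3′ on the strand of the gene, with either core in capitals on whichever strand it lies (CACGT and CACGC are the cores read on the opposite strand).
Higd1a, chr9:121857797-121858046, minus strand: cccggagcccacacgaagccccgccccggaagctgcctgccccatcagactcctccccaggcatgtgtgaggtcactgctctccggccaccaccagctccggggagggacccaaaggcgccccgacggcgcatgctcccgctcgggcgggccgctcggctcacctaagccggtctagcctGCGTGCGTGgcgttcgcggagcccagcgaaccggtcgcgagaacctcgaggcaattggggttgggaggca
Higd2a, chr13:54589981-54590230, plus strand: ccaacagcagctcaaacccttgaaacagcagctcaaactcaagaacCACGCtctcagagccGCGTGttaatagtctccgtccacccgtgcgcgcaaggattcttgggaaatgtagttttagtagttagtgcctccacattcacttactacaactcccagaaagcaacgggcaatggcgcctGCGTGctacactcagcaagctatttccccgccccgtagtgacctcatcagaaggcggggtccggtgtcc
Lonp1, chr17:56626904-56627153, minus strand: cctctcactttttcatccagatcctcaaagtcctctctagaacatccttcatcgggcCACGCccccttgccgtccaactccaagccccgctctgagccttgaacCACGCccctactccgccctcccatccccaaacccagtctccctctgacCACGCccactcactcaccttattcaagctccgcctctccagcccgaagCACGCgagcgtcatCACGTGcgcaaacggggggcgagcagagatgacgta
The *Higd1a* window held 2 overlapping GCGTG cores, which began 70 and 66 bases before the start, and no ACGTG, and it lies inside the longer gene of the GENCODE annotation. The *Higd2a* window held 3 GCGTG cores, at 204, 189 and 69 bases. The *Lonp1* window held 4 GCGTG cores, and ACGTG on both strands in the overlapping letters CACGTG, 36 bases before the start. Either core occurred in 38.6 % of the 32851 promoter windows of the same length, so a match is common and describes the letters only.

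For *Iscu* the sequence of interest is a microRNA site. The mature miR-210-3p of the mouse (chr7:141221407-141221428, minus strand, RefSeq) is shown with its seed, bases 2 to 8, in capitals, above the stretch of the *Iscu* 3′ UTR that holds the only match to the whole seed in the transcript Iscu-201, with the match in capitals.
miR-210-3p: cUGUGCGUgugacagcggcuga
Iscu, chr5:113777975-113777997, plus strand: aagaagctacgcaaaACGCACAc
The site lay 72 bases after the stop codon. The libraries measured polyadenylated RNA and do not report the mature microRNA.

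The whole gene counts recovered from the normalized values, called reads here, summed to 26541858 to 28173745 per library. Normalized counts were compared as log2(normalized count + 1) in a limma fit of all 4 groups. The fit covered the 14541 genes with at least 10 normalized counts in at least 6 of 24 libraries, with Benjamini-Hochberg adjustment over all of them. All adjusted p-values below come from that fit, and log2 differences are on that scale. The labels were checked with 12 HIF targets, of which 12 were higher in 1 % CTRL than in 5 % CTRL and 11 were higher in 1 % STIM than in 5 % STIM (1, *Vegfa*, was lower, a call lost with libraries rescaled to the same total), and with 6 stimulation-responsive genes, of which 4 were higher in 5 % STIM than in 5 % CTRL and 4 in 1 % STIM than in 1 % CTRL. Both lists were chosen with earlier results of these data known. Of the 6 stimulation-responsive genes, *Nr4a1* and *Nr4a3* also rose in 1 % CTRL over 5 % CTRL (1.29 and 0.88), and 2 fell. All 10 myotube markers were present, with a summed level of 513460 to 620972 normalized counts per library. Marker genes moved with oxygen as well. In 1 % CTRL against 5 % CTRL 6 of the 10 fell and 1 rose, among them the differentiation factor *Myog*, which fell from 30613 to 19439 on average (adjusted p = 5.3e-14) and stood at 21265 in 5 % STIM and 12522 in 1 % STIM, and the embryonic myosin *Myh3*, which fell from 139000 to 105591 (adjusted p = 9.2e-12). Of 6 myoblast markers 3 rose and 2 fell, and of 4 cycling cell markers 2 rose and 1 fell. Their part in the results of *Higd1a* and *Lonp1* was not tested. *Cox4i2* and *Ndufa4l2* are known to be abundant in smooth muscle, pericytes and endothelium, of which 9 markers summed to 92053 to 117861 per library. Of these *Rgs5* and *Kcnj8* stayed under 3 in every library, and group means ran from 0.850 to 2.41 for *Pecam1*, 2.09 to 4.95 for *Cdh5* and 5.86 to 12.4 for *Myh11*. The others were higher, at 124.6 to 166.6 for *Abcc9*, 2154 to 3336 for *Cspg4*, 7098 to 8536 for *Pdgfrb* and 86792 to 105453 for the actin gene *Acta2*. Library 1 of 1 % CTRL stood apart, with values that rose by 0.0945 on the log2 scale per doubling of exon length, against -0.0367 to 0.055 in the other 23, and values are given without it where it changes the call of a member, and for some counts of gene lists. These are bulk RNA values, in which more RNA per cell and more cells of a type cannot be told apart.

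*Higd1a* (ENSMUSG00000038412, chr9:121848563-121858362, minus strand) was the member that changed most. In 5 % CTRL its 6 libraries lay between 767 and 939.9 normalized counts, with a median of 883. In 1 % CTRL they lay between 1732 and 2223, with a median of 2113, so that every library under 1 % O2 held more than any library under 5 % O2. The means were 872 ± 60.6 and 2069 ± 173 (SD, n = 6), a log2 difference of 1.24 ± 0.06 (SE, adjusted p = 1.5e-15). The size of this difference exceeded that of 96.8 % of the genes tested.

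In stimulated myotubes the same gene separated the oxygen groups less widely. The 5 % STIM libraries lay between 885 and 964 (median 941, mean 938 ± 28.9), the tightest of the 4 groups. The 1 % STIM libraries lay between 1192 and 1691 (median 1398, mean 1431 ± 167), above all of 5 % STIM and below all of 1 % CTRL. The oxygen difference was 0.60 ± 0.06 (adjusted p = 5.7e-09). Under 1 % O2, the mean of *Higd1a* fell by 30.9 % with stimulation, a log2 difference of -0.54 ± 0.06 (adjusted p = 2.5e-07), whereas under 5 % O2 the groups overlapped and differed by 0.11 (95 % interval -0.02 to 0.24, adjusted p = 0.26). The interaction, which is the response to stimulation under 1 % O2 minus that under 5 % O2, was -0.64 ± 0.09 (adjusted p = 1.6e-05). The 4 groups thus ordered as 1 % CTRL, 1 % STIM, 5 % STIM and 5 % CTRL, and only the last 2 did not differ beyond their spread. Library 1 of 1 % CTRL, at 1732, was the lowest of its group, and library 3 of 1 % STIM, with the second steepest length trend at 0.055, was the lowest of that one.

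Part of the *Higd1a* exon sequence is not its own. Of its 75-base words, 21.9 % also occur in the annotated genes *Gm14925*, *Gm47112* or *Gm9790*. *Gm47112* lies at the same locus on the opposite strand, and its exons overlap those of *Higd1a* over 683 bases. *Gm14925* had no read in any library, and *Gm9790* and *Gm47112* reached at most 1.90 and 4.80 normalized counts, so little was assigned to these genes.

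*Higd2a* (ENSMUSG00000025868, chr13:54590207-54591158, plus strand), the other gene of the HIG1 family that passed the filter, did not pass the test in any comparison. Its libraries ranged from 445 to 635 in 5 % CTRL and from 354 to 533 in 1 % CTRL, and from 522 to 658 in 5 % STIM and from 443 to 575 in 1 % STIM. The oxygen groups overlapped in both conditions, with lower means under 1 % O2, at 480.1 ± 66.0 against 538 ± 64.0 without stimulation and 517 ± 53.1 against 581 ± 53.8 with it. The log2 differences were -0.17 ± 0.09 (adjusted p = 0.12) and -0.17 ± 0.09 (adjusted p = 0.13). At 648 bases of exon this is the shortest of the 7 genes, and with the length trend of each library removed the first difference was -0.21 and passed the test (adjusted p = 0.00084), as did its difference of 0.16 between 1 % STIM and 1 % CTRL (adjusted p = 0.032). Without library 1 of 1 % CTRL the difference between stimulated groups kept its size and passed (adjusted p = 0.047), and it also passed when these 2 groups were fitted alone (adjusted p = 0.039). Without library 5 of 5 % CTRL, the lowest of its group, the unstimulated difference was -0.22 (adjusted p = 0.039). Over all fits with a library left out it ranged from -0.22 to -0.08, with an adjusted p up to 0.35. Over the other alternatives it ranged from -0.21 to -0.09, with an adjusted p up to 0.43. Library 1 of 1 % CTRL, at 354, was the lowest of its group. The remaining genes of the family, *Higd1b* and *Higd1c*, gave 4 and 2 reads in all 24 libraries.

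*Lonp1* (ENSMUSG00000041168, chr17:56614297-56626887, minus strand), the ATP-dependent protease of the mitochondrial matrix, changed by less than *Higd1a* but with little spread. The 5 % CTRL libraries held between 3044 and 3367 normalized counts (median 3150, mean 3170 ± 124), and the 1 % CTRL libraries between 3811 and 4026 (median 3931, mean 3912 ± 81.6). No library of 5 % CTRL reached the lowest of 1 % CTRL. The difference was 0.30 ± 0.03 (adjusted p = 1.9e-09), a size that 59.8 % of the genes tested did not reach.

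With stimulation the ranges of *Lonp1* met. The 5 % STIM libraries lay between 3021 and 3506 (mean 3333 ± 177) and the 1 % STIM libraries between 3385 and 3827 (mean 3614 ± 156), with 4 of 6 above the highest of 5 % STIM. The oxygen difference was 0.12 ± 0.03 (adjusted p = 0.0037). In 1 % O2 the mean fell by 7.63 % with stimulation, a difference of -0.12 ± 0.03 (adjusted p = 0.012) with 5 of 6 libraries below the lowest of 1 % CTRL. At 5 % O2 the mean was 5.16 % higher with stimulation, a difference of 0.07 that did not pass (adjusted p = 0.14), although it did when libraries were rescaled to the same total (0.10, adjusted p = 0.020) or when library 1 of 5 % STIM, the lowest of its group, was left out (0.10, adjusted p = 0.027). The interaction was -0.19 ± 0.05 (adjusted p = 0.0088). *Lonp2*, which encodes the related protease of peroxisomes, went the other way with oxygen: it fell from 4025 ± 96.7 to 3466 ± 99.5 without stimulation and from 3906 ± 79.7 to 3416 ± 163 with it (differences of -0.22 and -0.19, adjusted p = 1.2e-07 and 9.4e-07), and its libraries did not overlap in either comparison.

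Beside these counts stands the reach of each comparison over all genes. Of the 6 members tested, 2 rose in 1 % CTRL over 5 % CTRL, and the same 2 rose in 1 % STIM over 5 % STIM, where 29.0 % rose and 28.4 % fell. In 1 % STIM against 1 % CTRL the 2 fell, where 10.8 % of genes fell and 11.5 % rose. In the interaction both were lower, where 5.43 % of genes were lower and 5.88 % higher. Of the 12 HIF targets of the label check, chosen with earlier results known, 11 were lower and 0 higher in 1 % STIM against 1 % CTRL (median -0.42). In 5 % STIM against 5 % CTRL 8 of these 12 were lower and 2 higher (median -0.12), whereas *Higd1a* and *Lonp1* were not called there. In the interaction 8 of these 12 were lower and 1 higher (median -0.35). None of the 6 members was called by limma in 5 % STIM against 5 % CTRL, where 21.4 % of genes were called and 9.44 % rose. There 1 of the 6 had an unadjusted p under 0.05 (*Lonp1*), and edgeR, DESeq2 and limma voom also called 0. Libraries that do not overlap between unstimulated oxygen groups, as for *Higd1a* and *Lonp1*, were found for 38.2 % of genes. For *Higd1a* in the stimulated oxygen groups and under 1 % O2 between stimulated and unstimulated cells, the corresponding shares were 37.3 % and 11.2 %. The median difference of the 6 members was 0.05 without and -0.01 with stimulation, near the medians of 0.00 over all genes.

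**Figure D1:**
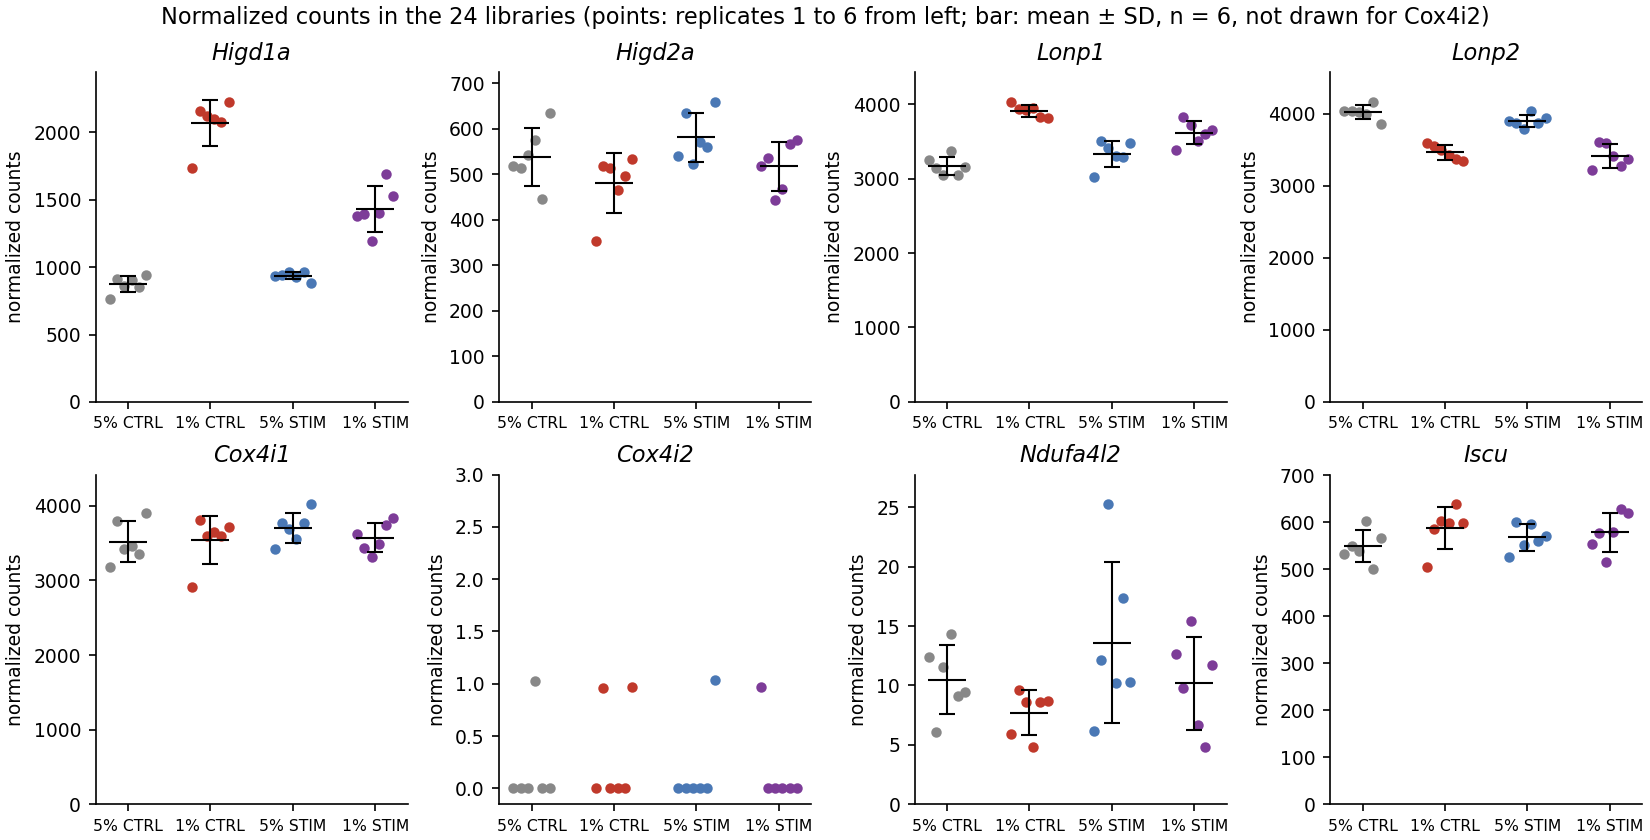
Normalized counts (linear y axes) of the 7 members and of Lonp2 in each of the 24 libraries, by group, with replicates 1 to 6 from left to right, the mean as a dash and the SD as error bars (n = 6), not drawn for Cox4i2. Higd1a steps from 872 to 2069 with 1 % O2 and to 1431 in 1 % STIM, Lonp1 and Lonp2 move in opposite directions with oxygen, and Cox4i2 never exceeds 1 read.

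**Figure D2:**
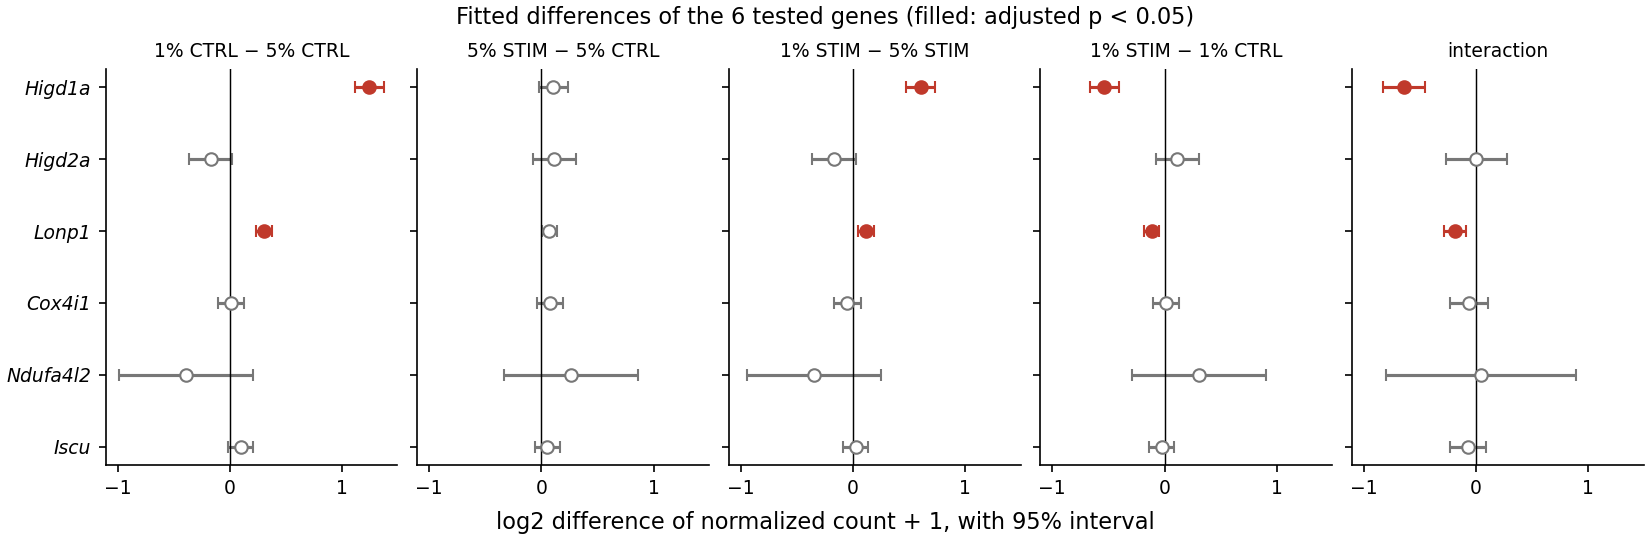
Fitted log2 differences (points) with 95 % intervals (bars) of the 6 members tested, in the 4 pairwise comparisons and the interaction, with filled red points for an adjusted p under 0.05. Higd1a and Lonp1 are filled in every panel but 5 % STIM against 5 % CTRL, and the interval of Ndufa4l2 is the widest in each panel.

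*Cox4i1* (ENSMUSG00000031818, chr8:120668222-120674207, plus strand), the common form of complex IV subunit 4, did not pass the test in any comparison. Its libraries ranged from 3181 to 3904 in 5 % CTRL, 2912 to 3811 in 1 % CTRL, 3428 to 4019 in 5 % STIM and 3314 to 3838 in 1 % STIM, and all 4 ranges overlapped. The means lay between 3522 ± 275 and 3704 ± 202. The oxygen difference in unstimulated cells was 0.01 with a 95 % interval of -0.11 to 0.13 (adjusted p = 0.90), and in stimulated cells -0.05 (-0.17 to 0.07, adjusted p = 0.46). Its exons overlap those of *Emc8* on the opposite strand over 154 bases, and *Emc8* averaged 893 to 1024 normalized counts.

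*Cox4i2* (ENSMUSG00000009876, chr2:152754173-152765037, plus strand), the isoform known from lung and smooth muscle, was near the limit of detection in every group. It was at 0 reads in 19 of the 24 libraries and at 1 read in the other 5, namely 1 library of 5 % CTRL, 2 of 1 % CTRL, 1 of 5 % STIM and 1 of 1 % STIM. In all it gave 5 of the 653816713 reads assigned to genes, which is 0.00765 per 1000000 reads (exact 95 % Poisson interval 0.00248 to 0.0178, counting error only). A count of 0 in a library allows up to 3 reads, or 0.106 to 0.113 per 1000000 reads. At this depth no difference between groups was detectable, and *Cox4i2* entered no test. Its counts came to at most 0.030 % of those of *Cox4i1* in any library.

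*Ndufa4l2* (ENSMUSG00000040280, chr10:127514967-127517154, plus strand) was detected in every library but at 5 to 25 reads. The values ran from 6.10 to 14.3 in 5 % CTRL (mean 10.5 ± 2.90), 4.79 to 9.59 in 1 % CTRL (7.70 ± 1.90), 6.13 to 25.2 in 5 % STIM (13.6 ± 6.78) and 4.81 to 15.4 in 1 % STIM (10.2 ± 3.93). Means were lower under 1 % O2, by differences of -0.39 (95 % interval -0.99 to 0.21, adjusted p = 0.26) without stimulation and -0.34 (-0.94 to 0.25, adjusted p = 0.33) with it, and all groups overlapped. The upper ends of these intervals were a 1.16-fold and a 1.19-fold rise. *Ndufa4l2* passed the filter with 11 of 24 libraries at 10 or more, so these values rest on few reads. A 32-base overlap with exons of *Shmt2* on the opposite strand, a gene at 5767 to 7551 normalized counts, holds no 75-base word shared between the 2 genes. *Ndufa4* itself, the abundant form, averaged 1162 to 1345 and was not called in any comparison (adjusted p = 0.35 for unstimulated and 0.091 for stimulated oxygen groups), although all 6 libraries of 1 % STIM lay below those of 5 % STIM. The counts of *Ndufa4l2* came to 0.896 ± 0.277 % of those of *Ndufa4* in 5 % CTRL and 0.602 ± 0.143 % in 1 % CTRL. After stimulation they came to 0.998 ± 0.466 % under 5 % O2 and 0.900 ± 0.414 % under 1 % O2.

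*Iscu* (ENSMUSG00000025825, chr5:113772748-113778288, plus strand) lay between 501 and 603 in 5 % CTRL, 505 and 638 in 1 % CTRL, 526 and 601 in 5 % STIM and 515 and 628 in 1 % STIM. The 4 ranges overlapped, with means of 549 ± 34.2, 588 ± 44.5, 568 ± 28.4 and 579 ± 41.8. The unstimulated oxygen difference was 0.10 ± 0.05 (95 % interval -0.01 to 0.21, adjusted p = 0.12), and the stimulated one 0.03 (-0.09 to 0.14, adjusted p = 0.71). The first passed the test with libraries rescaled to the same total (0.18, adjusted p = 0.0063), with array weights (0.12, adjusted p = 0.031) and without library 1 of 1 % CTRL (0.14, adjusted p = 0.018), higher under 1 % O2 each time. Of its 75-base words 5.26 % also occur in *Gm16437*, which reached at most 2.04 normalized counts.

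Compared per kilobase of exon (all annotated exons of a gene joined), the members spanned 4 orders of magnitude in 5 % CTRL. *Cox4i1* led with a level of 2272 ± 178 normalized counts per kilobase, followed by *Higd2a* at 831 ± 98.7, *Lonp1* at 725 ± 28.4, *Higd1a* at 287 ± 19.9 and *Iscu* at 252 ± 15.7. *Ndufa4l2* stood at 9.57 ± 2.65, against 859 ± 110 for *Ndufa4*, and *Cox4i2* at 0.216. In 1 % CTRL *Higd1a* reached 681 ± 56.8 per kilobase, next to *Higd2a* at 741 ± 102 and *Lonp1* at 894 ± 18.7.

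**Figure D3:**
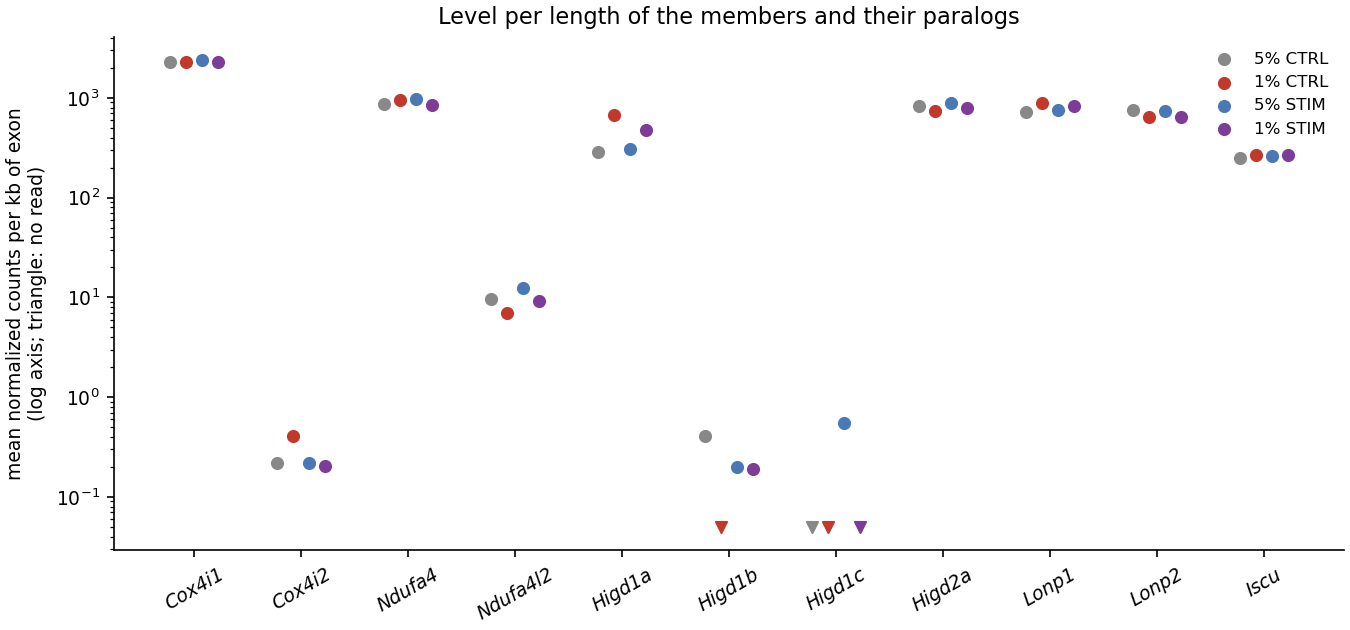
Mean normalized counts per kilobase of exon (log axis) of the 7 members and of the paralogs Ndufa4, Higd1b, Higd1c and Lonp2 in each group (colours), with triangles at the bottom for groups with no read. Cox4i1 stands near 2272, Ndufa4l2 near 10 and Cox4i2 below 1, and Higd1a moves most between groups.

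The genes around the members were taken as lists. Of 16 complex IV subunits tested in unstimulated cells, 0 rose and 0 fell between oxygen groups (median 0.05), 1 had an unadjusted p under 0.05, and edgeR, DESeq2 and limma voom called 0. Without library 1 of 1 % CTRL, 4 of them rose, and 2 did so with libraries rescaled to the same total. In stimulated cells all 16 differences were below 0 (15 with a common total or the length trend removed), with a median of -0.16 against 0.00 over all genes, and 1 passed, *Cox7a2l*, a factor of respiratory supercomplexes, which fell from 1490 ± 36.4 to 1285 ± 84.3 (-0.22, adjusted p = 9.8e-05). In 5 % STIM over 5 % CTRL all 16 were above 0 (median 0.18) and 2 rose, *Cox6b1* (0.23, adjusted p = 0.038) and *Cox7a2l* (0.14, adjusted p = 0.018). The first call was lost in 8 of 24 fits with a library left out (adjusted p up to 0.093), and the second without library 3 of 5 % CTRL (adjusted p = 0.065). Without library 1 of 1 % CTRL, 4 rose in this comparison and 3 fell in 1 % STIM against 5 % STIM. In the interaction 0 of 16 passed, with 3 at an unadjusted p under 0.05 and 0 called by edgeR, DESeq2 or limma voom, and without library 1 of 1 % CTRL 4 were lower.

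Of 23 complex IV assembly factors, 5 were higher and 5 lower in 1 % CTRL. Those that fell most were *Fastkd3*, a mitochondrial RNA-binding protein (from 376 ± 25.3 to 252 ± 25.2, a difference of -0.58, adjusted p = 8.3e-09), the copper chaperone *Sco1* (-0.51, adjusted p = 4.2e-11) and *Cox10*, which makes heme O for the enzyme (-0.48, adjusted p = 2.4e-11). In stimulated cells 2 rose and 5 fell, with *Fastkd3*, *Coa7* and *Sco1* at -0.46, -0.36 and -0.35. Rescaled to the same total, 9 rose in 1 % CTRL in place of 5. Counts of this list and those below stand beside the shares over all genes. In 1 % CTRL 29.4 % of all genes rose and 30.5 % fell, and in 1 % STIM over 5 % STIM 29.0 % and 28.4 %.

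Around *Lonp1*, 5 of 19 mitochondrial proteases and peptidases rose in 1 % CTRL and 6 fell. *Xpnpep3*, an aminopeptidase, rose from 942 ± 62.7 to 1213 ± 51.6 (0.37, adjusted p = 3.9e-09) and *Immp1l*, of the inner membrane peptidase, from 184 ± 26.7 to 229.9 ± 21.5 (0.33, adjusted p = 0.0015), both by more than *Lonp1*. In stimulated cells 6 rose and 6 fell, and *Xpnpep3* (0.51, adjusted p = 2.7e-12), *Oma1*, a stress-activated protease (0.36, adjusted p = 0.00034), and *Clpx*, the unfoldase of the ClpXP protease (0.25, adjusted p = 3.7e-07), led. In the interaction *Lonp1* alone of the 19 passed, and without library 1 of 1 % CTRL 2 others did so as well. There 5 of the 19 had an unadjusted p under 0.05, and edgeR, DESeq2 and limma voom called 1, 3 and 1. The lowest interaction in the list was -0.41, against -0.19 for *Lonp1*. Rescaled to the same total, 11 rose and 3 fell in 1 % CTRL, and 11 rose and 2 fell in 1 % STIM against 5 % STIM. Of the mitochondrial chaperones and stress response genes, 1 of 12 rose and 4 fell in 1 % CTRL, against 4 and 3 with libraries rescaled to the same total and 4 and 4 without library 1 of 1 % CTRL. Among them *Atf4*, the transcription factor of the integrated stress response, fell from 9604 ± 597 to 6395 ± 517 (-0.59, adjusted p = 9.0e-12) and the chaperonin *Hspd1* from 20531 to 16712 (-0.30, adjusted p = 1.1e-09).

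Around *Iscu*, 4 of 23 iron-sulfur cluster genes rose and 4 fell in 1 % CTRL, and 4 rose and 4 fell in 1 % STIM over 5 % STIM. The mitochondrial iron importer *Slc25a37* fell in both (-0.33, adjusted p = 5.4e-09, and -0.42, adjusted p = 4.1e-11), and in the first the late-acting factor *Iba57* (-0.32, adjusted p = 5.0e-05) and the cluster-handling chaperone *Hspa9* (-0.23, adjusted p = 1.8e-08) fell as well. Rescaled to the same total, 11 of the 23 rose and 3 fell in 1 % CTRL, and without library 1 of 1 % CTRL 7 rose and 4 fell.

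**Figure D4:**
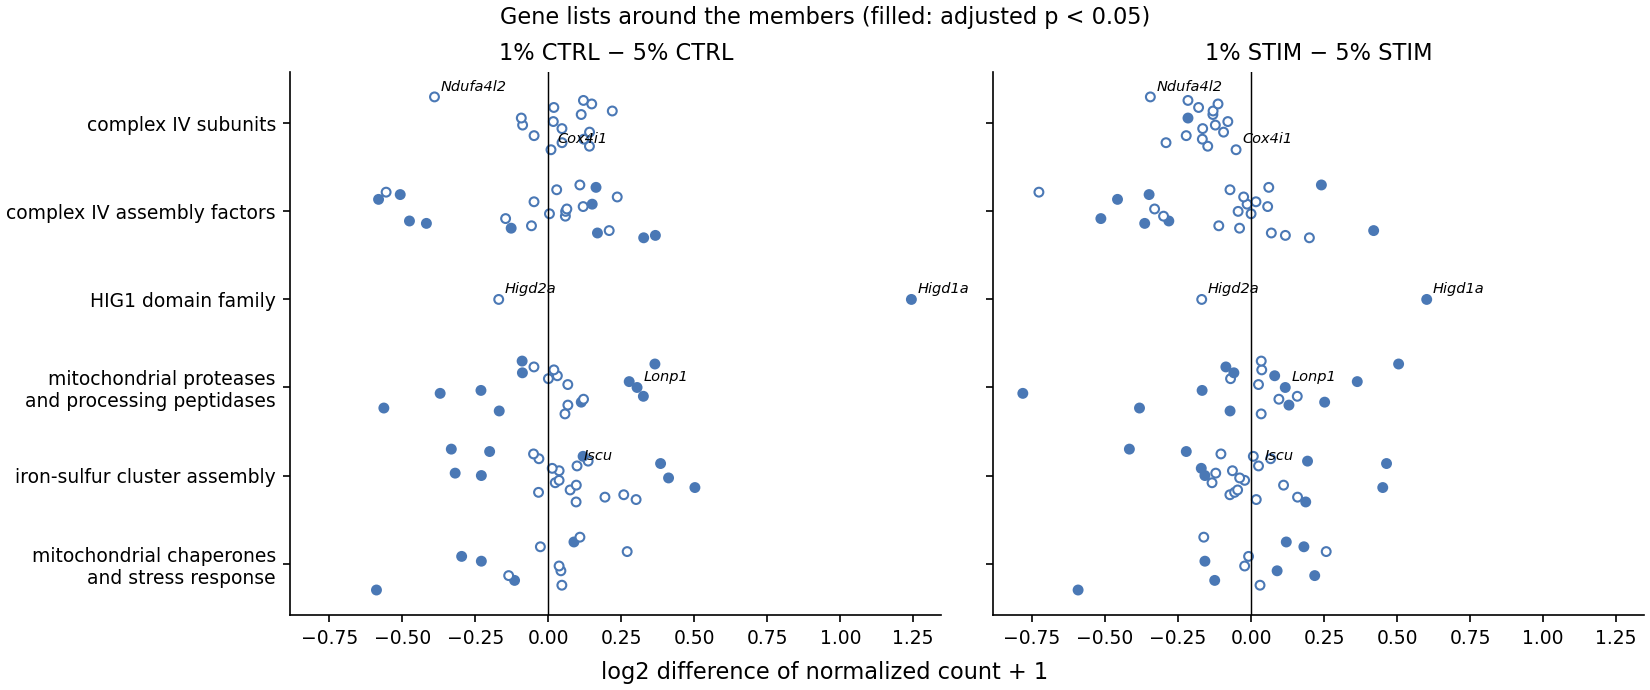
Log2 differences between oxygen groups (x axis) of the tested genes in 6 lists (rows), without stimulation on the left and with it on the right, as 1 point a gene, filled for an adjusted p under 0.05, with the members named. Higd1a lies to the right of all other points in both panels, Lonp1 among the risen proteases, and the complex IV subunits lie left of 0 with stimulation.

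The genes whose levels followed each member most closely over the 24 libraries, among tested genes with a mean of at least 100, are given as a description, since the libraries share the 4 conditions. For *Higd1a* they were *Itpk1* (Pearson r = 0.97), *Clic1* (0.97) and the HIF target *Bnip3* (0.97), which averaged 3834 in 5 % CTRL and 8724 in 1 % CTRL, and 3746 and 6467 in the stimulated groups at 5 % and 1 % O2. For *Lonp1* they were *Bhlhe40* (0.93), *Ndrg1* (0.92) and *Pkm* (0.91), of which *Ndrg1* averaged 6300.4, 21195, 9166 and 13373 in the same order. *Higd1a* and *Lonp1* correlated with each other at 0.86. *Cox4i1* was closest to *Myl4* (0.90), *Rpl28-ps1* (0.89) and *Ndufa7* (0.89), *Higd2a* to *Serf1* (0.90), *Gm12338* (0.87) and *Map1lc3a* (0.87), and *Iscu* to *Chchd1* (0.86), *Lgals1* (0.85) and *Gm10123* (0.85). *Cox4i1* and *Higd2a* correlated at 0.75. Library 1 of 1 % CTRL, with the steepest length trend, held the lowest value of both (2912 and 354), and its part in this correlation was not tested. For *Ndufa4l2* no gene exceeded 0.63 (*Dleu2*, *Tpp1* and *Tnfrsf22* at 0.62 to 0.63), which at these counts is not read further.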

How the data were processed

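RNA of 24 C2C12 cultures was sequenced from stranded mRNA libraries as single-end reads. Per the labels and the study's methods, the authors checked reads with FastQC 0.11.7, aligned them to GRCm38 with STAR 2.5.4b and quantified genes with RSEM 1.3.0 at default parameters, with no use of strand stated. The signal the authors deposited is the gene count divided by a DESeq2 size factor (0.955 to 0.992 under 5 % O2, 1.02 to 1.05 under 1 % O2). A second deposited table, of the authors' own log2 fold changes and p-values, was not used. Whole counts per gene, called reads in the text, were recovered from the smallest step of each library (100 % of values within 0.001). In library 5 of 5 % CTRL and library 3 of 5 % STIM the step lies close to that of undivided counts, where whole multiples are weaker evidence.

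Symbols, positions and exons came from GENCODE M21. Genes with at least 10 normalized counts in at least 6 libraries (14541) entered limma 3.58.1 (R 4.3.3; lmFit, contrasts.fit, eBayes with trend and robust) as log2(normalized count + 1), without a replicate block. Genes with a Benjamini-Hochberg adjusted p under 0.05 were called. The fit was tested on simulated data. Alternatives were the replicate number as a block, a pseudocount of 10, all genes without the filter, a threshold of 0.01, the compared groups alone, a common total, array weights, removal of the length trend, each library left out, and edgeR 4.0.16, DESeq2 1.42.0 and limma voom on whole reads. Named were all members, 4 paralogs and the 3 genes most correlated with each member. Up to 3 called genes with the largest change per list and comparison were added, if the higher group averaged 100 or more. *Emc8*, *Shmt2* and the genes that share sequence with *Higd1a* and *Iscu* were named for their overlap. Members and lists were chosen with earlier results of these data known. Replicate numbers were not taken as pairs: of 36 same-numbered pairs, 2 correlated above 0.1. The promoters of *Cox4i1*, *Cox4i2*, *Ndufa4l2* and *Iscu* and protein sequences were not used here.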

Additional observations from a re-analysis of the deposited data

Results flagged for a closer look

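Among the 24 sets of 6 values (6 tested members in 4 groups), 2 lowest values lay far from the others of their group by Dixon's criterion, which chance meets in about 1 of 20. Both were library 1 of 1 % CTRL: *Cox4i1* at 2912 normalized counts, with a gap of 0.761 of the group's range, and *Higd1a* at 1732, with a gap of 0.706. The same library had the steepest length trend. It still held more *Higd1a* than any library of the other groups, whose highest value was 1691.

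For 2 members the oxygen response differed between stimulated and unstimulated myotubes in the limma fit. The response with stimulation minus that without it was -0.64 on the log2 scale for *Higd1a* (adjusted p = 1.6e-05) and -0.19 for *Lonp1* (adjusted p = 0.0088). Both members had their lowest mean in 5 % CTRL. The summed level of 6 myoblast markers was lowest in 1 % STIM (6607 to 7310 per library, against 8231 to 9120 in the other groups). Most of that sum was *Sdc4*, which averaged 6930, 6978, 6086 and 4971 in 5 % CTRL, 1 % CTRL, 5 % STIM and 1 % STIM, whereas *Myf5* was highest in 1 % STIM, at 149, 231, 194 and 306. The part of these markers in the differences was not tested.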

How the results depend on the processing

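No called member difference changed sign, and those of *Higd1a* and *Lonp1* kept their calls in every alternative but the threshold of 0.01, where *Lonp1* in 1 % STIM against 1 % CTRL was lost (adjusted p = 0.012) and 1 member in place of 2 was called. That threshold left 1944 genes in 5 % STIM against 5 % CTRL, in place of 3115, and 830 in the interaction, in place of 1645. Rescaled to the same total, 1 member (*Lonp1*) was called in 5 % STIM against 5 % CTRL, in place of 0, and with libraries left out in turn that count ranged from 0 to 1. Leaving out libraries moved the log2 difference of *Higd1a* in 1 % CTRL over 5 % CTRL between 1.21 and 1.29 and that of *Lonp1* between 0.29 and 0.32, and their interactions between -0.69 and -0.59 and between -0.22 and -0.17. Among the other alternatives 316 member differences kept their side of the threshold, 6 gained a call and 1 lost it, and of 720 with a library left out 4 gained a call. These gains all concern *Higd2a*, *Iscu* or *Lonp1* and are given with the values. Per kilobase, the ratio of *Ndufa4l2* to *Ndufa4* in 1 % CTRL was 0.759 % in place of 0.602 %. With the replicate number as a block 8730 genes were called in 1 % CTRL against 5 % CTRL, 3190 in 5 % STIM against 5 % CTRL, 8350 in 1 % STIM against 5 % STIM, 3320 in 1 % STIM against 1 % CTRL and 1710 in the interaction, and no call of a member changed. Counts of the gene lists moved most with the common total, which shifts the median of all genes by 0.08 in 1 % CTRL against 5 % CTRL, and without library 1 of 1 % CTRL.

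Depth limits *Cox4i2* and *Ndufa4l2*, which gave 5 and 252 reads in the 24 libraries. Replicates share a cell line and a single labelled exposure time of 2 h, so the p-values speak for cultures of this line near that time. RNA levels do not give protein levels or complex IV composition.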

Other observations

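Of 12 mitochondrial chaperone and stress response genes, 3 rose and 1 fell in 5 % STIM against 5 % CTRL, and 3 rose and 0 fell in 1 % STIM against 1 % CTRL (5 and 0 rescaled to the same total or without library 1 of 1 % CTRL). *Ddit3*, a transcription factor of the integrated and mitochondrial stress responses, rose from 591 ± 24.8 to 917 ± 98.7 normalized counts under 5 % O2 (0.63, adjusted p = 1.3e-07) and from 537 ± 4.64 to 1072 ± 160 under 1 % O2 (0.98, adjusted p = 1.5e-11, limma). *Atf4* rose by 0.37 and 0.36. The chaperonin *Hspd1*, lower in 1 % CTRL than in 5 % CTRL, had an interaction of 0.29 (adjusted p = 3.7e-05), opposite in sign to that of *Lonp1*, and stood at 17827 in 5 % STIM and 17727 in 1 % STIM.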
